A study of Mus musculus with 33 samples.

Results

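The genes described here are 10 transcription factor genes of the activator protein 1 (AP-1) and immediate-early families, *Fos*, *Fosb*, *Fosl1*, *Fosl2*, *Jun*, *Junb*, *Jund*, *Atf3*, *Egr1* and *Egr2*, taken by symbol from the 24421 genes of the count tables. All 10 symbols were found in all 33 libraries. The libraries are bulk RNA-seq of macrophages sorted from C57Bl/6 mice of 6 to 8 weeks of age. The study's methods state that both sexes were used in each experiment. Kupffer cells (KCs), the resident macrophages of the liver, were taken from mice of the genotype *Clec4f-cre*x*Zeb2* fl/fl, with CRE under control of *Clec4f*, a gene that KCs express, and sorted as Tim4+ KCs (n = 6) and Tim4- KCs (n = 6); Tim4 is a receptor for dying cells. Alveolar macrophages (AMs), which live in the airspaces of the lung, were taken from the genotype *Itgax-cre*x*Zeb2* fl/fl, with CRE under control of the CD11c gene, which other CD11c+ cells use too, and sorted as CD11b- AMs (n = 5) and CD11b+ AMs (n = 5). CRE- KCs (n = 6) and CRE- AMs (n = 5) are the controls, whose genotype is *Zeb2* fl/fl without CRE and which the labels call WT, so that all 6 groups carry the floxed alleles. ZEB2 is a zinc finger transcription factor that mostly represses its targets. Each library held 25000 sorted cells. The labels number the replicates but do not say which libraries came from 1 animal, so p-values measure the spread between libraries.

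FOS and JUN proteins bind DNA as pairs of leucine zipper proteins at the AP-1 motif, FOS proteins only with a partner, and ATF3 is a zipper protein of the ATF family that can pair with JUN. EGR1 and EGR2 are zinc finger proteins that bind GC-rich motifs and are held in check by the corepressors NAB1 and NAB2. Most of these genes are transcribed within minutes of a signal from mitogen-activated protein kinases and serum response factor, without new protein synthesis, in activated macrophages and also in cells that are cut out of tissue and warmed with enzymes. Livers were dissociated mechanically and digested with collagenase A for 20 min, and lungs were digested with Liberase TM for 30 min, both at 37 °C. Tissue and dissociation protocol therefore cannot be told apart in any comparison of KCs with AMs, and the mix of sexes differs between them too. Within 1 tissue the methods describe the same protocol for all groups. The labels do not give the sort day or handling of each library, and their part in differences within a tissue was not tested.

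Between 9837240 and 24332306 reads per library fell on genes (median 20683608). Levels are given as counts per 1000000 reads on genes (CPM), with library sizes scaled by the TMM method over all 33 libraries, and are means ± SD. *Zeb2*, the targeted gene, fell from 283 ± 38.7 CPM in CRE- KCs to 175 ± 25.9 in the Tim4+ and 170 ± 16.3 in the Tim4- group, and from 194 ± 16.3 CPM in CRE- AMs to 105.1 ± 11.9 in CD11b- AMs and 62.1 ± 7.88 in CD11b+ AMs (adjusted p at most 9.79e-05 against CRE- cells in edgeR's quasi-likelihood test). Counts per gene also take in reads from the parts of *Zeb2* outside the deletion. The study also reports KCs and AMs in these CRE+ mice that kept a copy of *Zeb2*. The CRE+ groups can therefore mix cells with and without *Zeb2*, and the share of each was not measured here. The 5 KC markers *Clec4f*, *Timd4*, *Cd5l*, *Vsig4* and *Nr1h3* summed to between 9286 and 23750 CPM in KC libraries and to at most 156.3 CPM in AM libraries. In AM libraries *Xist* was at 13.2 to 30.1 CPM and the Y-linked *Ddx3y* at most at 0.0527 CPM, as in female cells. *Ddx3y* ranged from 0 to 74.5, 76.2 and 66.5 CPM in CRE-, Tim4+ and Tim4- KCs, so that each KC group held both sexes. Replicate 6 of the Tim4+ KCs and replicate 6 of the Tim4- KCs stood apart from the other KC libraries in *Egr1* and *Egr2*, and results that rest on them are given with and without them.

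Among CRE- macrophages, KCs held less of all 10 genes than AMs did. Among genes with reads in both, the gap was widest for *Fosb*, *Egr2*, *Fos*, *Egr1* and *Fosl2* and narrowest for *Jun* and *Jund*. For each of the 10 genes every CRE- KC library lay below every CRE- AM library. Of the 12145 genes tested, 23.3% had groups set apart in that direction, and 29.9% passed the test as lower in KCs (63.2% in either direction). *Fosl1* passed the filter on low counts through the AM libraries alone and so had to differ.

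Among the FOS genes, *Fos*, the founding member of the family, ranged from 28.0 to 50.2 CPM in CRE- KCs (median 41.9), whereas the 5 CRE- AM libraries held 1272, 1118, 1396, 1348 and 1419 CPM. All KC libraries thus lay far below all AM libraries, and the fitted difference was 31.9-fold (log2 -4.99, SE 0.14, adjusted p = 6.68e-13 in edgeR). *Fosb*, which encodes a close relative with the same pairing rules, ranged from 1.09 to 3.42 CPM in KCs, and the AM libraries held 367, 286, 399, 372 and 465 CPM. It was 181-fold lower in KCs (log2 -7.50, SE 0.22). *Fosl2*, which encodes FRA-2, was 12.0-fold lower, at 16.7 ± 3.37 CPM in KCs and 202 ± 21.4 CPM in AMs. *Fosl1*, which encodes FRA-1, had no read in any CRE- KC library and 2.05 ± 0.31 CPM in CRE- AMs, so that it was at least 87.0-fold lower in KCs, taking 3 reads over the whole KC group as the floor.

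The JUN genes showed a smaller gap. *Jun* ranged from 112 to 178 CPM in CRE- KCs (median 143), and the CRE- AM libraries held 230, 255, 261, 252 and 254 CPM. The difference was 1.73-fold (log2 -0.79, SE 0.12, adjusted p = 4.19e-05 in edgeR). *Junb*, a partner that can restrain JUN, was 7.47-fold lower in KCs, at 174 ± 31.7 against 1308 ± 39.3 CPM. *Jund*, the family member that most resting cells express, was 2.55-fold lower, at 295 ± 33.8 against 758 ± 94.4 CPM.

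*Atf3*, which encodes a stress-induced repressor of cytokine genes, was 7.23-fold lower in KCs, at 30.6 ± 7.28 against 222 ± 42.7 CPM. *Egr1* ranged from 12.7 to 27.3 CPM in CRE- KCs (median 18.6), and the AM libraries held 411, 598, 536, 460 and 430 CPM, a 25.0-fold difference (log2 -4.65, SE 0.22). *Egr2*, which has a known part in macrophage and myelin gene programs, ranged from 3.43 to 7.96 CPM in KCs (median 4.68) against 828, 910, 883, 1044 and 861 CPM in AMs. At 180-fold (log2 -7.49, SE 0.17, adjusted p = 9.29e-14 in edgeR) it had the smallest adjusted p of the 10.

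**Figure D1:**
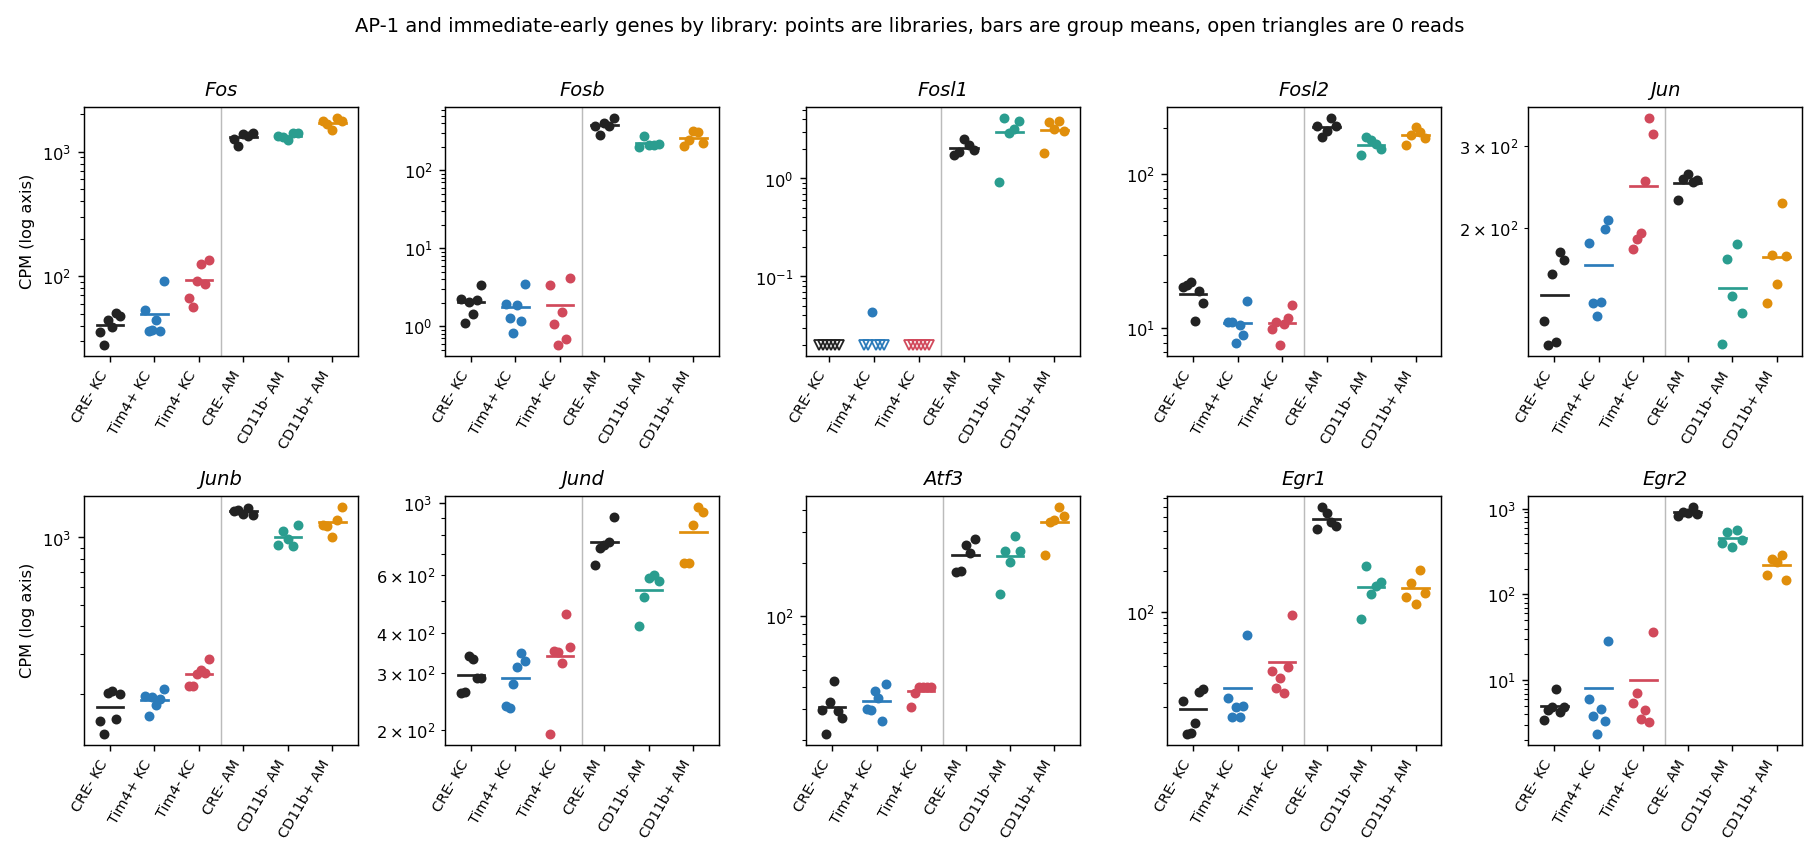
CPM of the 10 genes in each library on log axes with a separate range for each gene; points are libraries in replicate order, bars are group means, and open triangles stand for libraries with 0 reads. In the CRE- groups all 10 genes sit lower in KCs, from 1.73-fold for Jun to 181-fold for Fosb among genes with reads in both. Fosl1 had no reads in CRE- KCs and passed the filter on low counts through AMs alone. For Egr1 and Egr2, 1 library each of the Tim4+ and Tim4- KCs stands above the rest.

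Because longer transcripts yield more reads, the genes can be ranked against each other only per kb of exon (GENCODE M21, GRCm38). In CRE- AMs *Junb* (568 ± 17.1 CPM per kb) and *Fos* (557 ± 51.6) led and did not differ beyond their spread, followed by *Jund* (455 ± 56.6) and *Egr2* (266 ± 24.5). *Egr1* (109 ± 17.5) and *Atf3* (103 ± 19.8) again lay within each other's spread, above *Jun* (78.5 ± 3.76), *Fosb* (60.5 ± 10.3), *Fosl2* (20.9 ± 2.21) and *Fosl1* (1.01 ± 0.15). The order in CRE- KCs was another one. There *Jund* (177 ± 20.3 CPM per kb) led, with *Junb* (75.6 ± 13.8), *Jun* (45.1 ± 9.25), *Fos* (17.4 ± 3.51) and *Atf3* (14.2 ± 3.38) behind it, the last 2 within their spread. *Egr1* (4.30 ± 1.46), *Fosl2* (1.73 ± 0.35), *Egr2* (1.47 ± 0.46) and *Fosb* (0.33 ± 0.13) came last among the genes detected. *Egr2* thus ranked in place 4 in AMs and in place 8 in KCs.

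Promoter sequence is shown for the 2 genes with the widest gap that had reads in both tissues, *Fosb* and *Egr2*, with motif matches in capitals. RefSeq (GRCm38.p6) held windows of 250 bases before to 50 after the start site for 8 of the 10 genes, and none for *Fosl1* and *Egr1*. The *Fosb* stretch is chr7:19310052-19310201 on the minus strand, upstream of the gene and outside any gene of GENCODE M21, and holds CAGGTG at bases -153 and -146 from the start site (the ZEB E2-box CACCTG read on the other strand) and the EGR motif at base -50. The *Egr2* stretches, chr10:67537484-67537513 and chr10:67537787-67537816 on the plus strand, start 82 bases before 2 of its annotated start sites and lie inside the gene and outside its annotated exons, and each holds a CArG box, the motif of serum response factor.
Fosb: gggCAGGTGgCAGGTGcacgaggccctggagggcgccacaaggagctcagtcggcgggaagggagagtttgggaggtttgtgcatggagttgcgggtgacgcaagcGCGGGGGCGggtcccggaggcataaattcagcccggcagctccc
Egr2 first site: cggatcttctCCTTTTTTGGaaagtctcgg
Egr2 second site: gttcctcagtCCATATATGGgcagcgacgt
Both strands were searched in all 32851 windows. The EGR motif GCGNGGGCG was in the windows of *Fosb* and *Fosl2* and in 5.55% of all windows, the CArG box in that of *Egr2* and in 1.63%, and CACCTG in that of *Fosb* and in 20.2%. The AP-1 motif TGANTCA (7.81% of all windows) and the CRE motif TGACGTCA (1.79%) were in none of the windows of the 8 genes. CACCTG, GCGNGGGCG and the CArG box do not overlap in these stretches.

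Other genes of these pathways differed in a more mixed way. The largest changes within a list are named, in each comparison of 2 groups, among called genes with a mean of at least 10 CPM in the higher group. Among 39 other immediate-early genes tested, 27 were lower and 6 higher in KCs, with a median log2 difference of -1.73 (all genes tested, 0.03). The nuclear receptor genes *Nr4a3* and *Nr4a2* had the largest decreases (log2 -7.96 and -6.22), whereas *Hes1*, a NOTCH target, and *Klf2* had the largest increases at that level (10.11 and 1.78). Of 27 AP-1 partners 11 were higher and 11 lower. The large MAF gene *Maf* was higher in KCs (log2 10.67) and the small MAF gene *Maff* and *Nfe2* lower (-5.20 and -4.37). *Maf* and *Hes1* were at 0.06 and 0.08 CPM in AMs, and *Nr4a3* was at 0.21 CPM in KCs. The size of these log2 differences therefore rests on very few reads in the lower group. Of 36 upstream and feedback regulators 15 were higher and 10 lower. The phosphatase gene *Dusp5* fell from 210 to 0.69 CPM (log2 -8.21) and *Dusp1* from 599 to 87.1 CPM (-2.77), while *Spred1* and *Dusp10* were higher in KCs (2.97 and 2.37). The heat-shock genes, which also respond to warming and handling, showed no common direction, with 5 of 21 higher and 8 lower and a median of -0.07. *Hspa1a* was higher in KCs (28.1 ± 13.7 against 10.4 ± 8.10 CPM), as was *Dnajb4*, while *Hsph1* and *Hspd1* were lower. Of 35 macrophage activation genes 15 were higher and 16 lower. *Mmp13* (listed at 0 reads in AMs) and *Cd40* led those higher in KCs, and *Osm* and *Cxcl2*, the latter a neutrophil chemokine, those lower at that level (log2 -10.08 and -6.98). *Osm* was at 0.33 CPM in KCs, again very few reads.

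Tim4+ KCs differed from CRE- KCs in 1 of the 9 genes tested, against 6.09% of all 12500 genes (2.46% lower), and *Fosl1* was not tested in KCs because 1 read was found in the 18 libraries. *Fosl2* ranged from 7.99 to 15.03 CPM in Tim4+ KCs (median 10.6) and from 11.0 to 19.8 CPM in CRE- KCs (median 18.02), and the groups overlapped. It was 1.58-fold lower (log2 -0.66, SE 0.18, adjusted p = 0.0295 in edgeR), and the call was lost without any 1 of CRE- KC replicates 1, 2, 3 and 5 or Tim4+ KC replicates 1 to 5 (adjusted p 0.0534 to 0.0800). No member also passed a 2-fold limit, against 2.31% of all genes, and no member's groups were set apart, against 4.82% of all genes. *Fos* ranged from 36.3 to 92.1 CPM (median 40.9) in Tim4+ KCs, and the interval of its log2 difference ran from -0.19 to 0.74. The intervals for *Jun* (-0.15 to 0.54), *Junb* (-0.12 to 0.29) and *Jund* (-0.33 to 0.24) were the narrowest of the members together with that of *Atf3* (-0.18 to 0.38). Among the other lists few genes passed the test. Of 38 other immediate-early genes *Plk2*, *Ier5* and *Btg2* were higher and *Hes1* lower, and of 27 AP-1 partners *Mafg* (log2 0.73) and *Maff* were higher and *Cebpb* was lower. *Mmp13* (47.9 against 10.4 CPM) and *Ccl4* (17.2 against 7.95 CPM) were higher and *Cd14* lower among 33 activation genes.

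In Tim4- KCs, 4 of the 9 genes tested were higher than in CRE- KCs, namely *Fos*, *Jun*, *Junb* and *Egr1*, and *Fosl2* was lower. Of all 12500 genes, 12.2% were higher and 13.2% lower (25.4% in either direction). *Fos* and *Egr1* alone also passed a 2-fold limit, against 8.82%. *Fos* ranged from 56.4 to 135 CPM (median 88.9), every library above the highest CRE- KC library at 50.2 CPM. It rose 2.26-fold (log2 1.18, SE 0.24, adjusted p = 0.00105 in edgeR). *Jun* ranged from 181 to 345 CPM (median 224) and *Junb* from 216 to 286 CPM (median 247). *Jun* rose 1.69-fold (SE 0.18 on the log2 scale, adjusted p = 0.00328 in edgeR) and *Junb* 1.39-fold (SE 0.11, adjusted p = 0.00248 in edgeR), again with every Tim4- KC library above every CRE- KC library. These 3 genes were set apart in that direction, as were 6% of all genes. *Jund* was at 339 ± 84.4 CPM and *Atf3* at 37.8 ± 3.74 CPM, and their log2 differences of 0.18 and 0.29 did not pass the test, though *Atf3* did without CRE- KC replicate 4 (0.41, adjusted p = 0.0295). *Fosl2*, at 10.8 ± 2.11 CPM, fell by 0.65 (log2, adjusted p = 0.0113 in edgeR), about as far as in Tim4+ KCs, with which it shares the control libraries.

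*Egr1* in Tim4- KCs ranged from 25.3 to 94.9 CPM (median 34.7), overlapping CRE- KCs at 12.7 to 27.3 CPM. It rose 2.18-fold (log2 1.13, SE 0.37, adjusted p = 0.0287 in edgeR). The call was lost without Tim4- KC replicate 6 (log2 0.72, adjusted p = 0.111) and without CRE- KC replicate 2, 3 or 4 (adjusted p 0.0601 to 0.0653), and held at 0.73 with replicate 6 of both CRE+ KC groups left out (adjusted p = 0.0114). *Egr2* ranged from 3.28 to 36.7 CPM with a median of 4.95, near the CRE- KC median of 4.68. Its log2 difference of 0.999 (SE 0.63) did not pass and turned to -0.08 without both replicates 6. *Fosb* stayed between 0.58 and 4.19 CPM.

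Compared directly, Tim4- KCs were higher than Tim4+ KCs in *Fos* (1.87-fold, adjusted p = 0.0158 in edgeR), *Jun* (1.48-fold, adjusted p = 0.0431) and *Junb* (1.31-fold, adjusted p = 0.0208), 3 of the 9 genes tested against 3.84% of all genes in that direction and 11.5% in either. None also passed a 2-fold limit, against 5.45% of all genes. *Junb* alone had groups set apart, as did 1.45% of all genes in that direction. In this comparison libraries with the same number deviated together, and a fit with the replicate number as a block also called *Egr1*, at a log2 difference of 0.67 (adjusted p = 0.00888 in edgeR). Without the block it was 0.63 (adjusted p = 0.295), and it was called at 1.14 without Tim4+ KC replicate 6 (adjusted p = 0.0177) and at 0.74 without both replicates 6 (adjusted p = 0.0291). The *Jun* call was lost without any 1 of Tim4+ KC replicates 2, 3 and 4 or Tim4- KC replicates 4, 5 and 6 (adjusted p 0.0700 to 0.112) and without both replicates 6 (adjusted p = 0.0591), and *Junb* was lost without Tim4+ KC replicate 2 (adjusted p = 0.0587) or Tim4- KC replicate 6 (adjusted p = 0.0508). *Jund* was called without Tim4- KC replicate 1 (adjusted p = 0.0491).

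Immediate-early genes outside the 10 moved in part with them in Tim4- KCs. Of 38 tested, 9 were higher and 4 lower than in CRE- KCs. *Btg2*, an antiproliferative gene, rose from 68.4 ± 9.71 to 162 ± 49.9 CPM (log2 1.23) and *Ier5* from 80.2 ± 20.4 to 186 ± 52.0 CPM (1.20), whereas *Plk2* and *Ets2* fell by 0.81 and 0.48. *Zfp36*, whose product degrades cytokine mRNAs, and *Myc* were the largest called increases of Tim4- over Tim4+ KCs (log2 0.67 and 0.61), and *Nr4a1*, at 0.67, was not called (adjusted p = 0.0632 in edgeR). Of 37 upstream and feedback regulators 7 were higher and 4 lower than in CRE- KCs. *Dusp5*, whose product removes phosphate from nuclear ERK, rose from 0.69 to 10.3 CPM (log2 3.87) and *Dusp1* from 87.1 to 168 CPM (0.93), and *Elk3* and *Dusp3* fell by 0.99 and 0.92. *Mafg* and *Batf* were higher and *Cebpa* and *Crem* lower among 8 of 27 AP-1 partners that passed. Only *Chordc1* and *Hspe1* were higher among 21 heat-shock genes, by 0.50 and 0.49, and 2 were lower. Of 33 activation genes *Mmp13* (log2 2.76) and *Ccl4* (1.84) had the largest of 8 increases, and *Cd14* and *Plaur* fell by 0.79 and 0.77.

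Genes listed as markers of other cells also differed between the KC groups. The 5 monocyte markers summed to 72.6 to 294 CPM in CRE- KCs, 80.9 to 316 CPM in Tim4+ KCs and 281 to 796 CPM in Tim4- KCs, with none at 0 throughout CRE- KCs and 1 at 0 throughout each CRE+ group. That sum was carried by *Plac8*, at means of 192, 131 and 316 CPM, and *Ccr2*, at 4.98, 21.8 and 115.5 CPM. *F13a1* was at 5.68, 5.30 and 2.62 CPM and *Ly6c2* at most at 0.64 CPM. The 5 B cell markers measured of 6 summed to 47.5 to 95.6, 103 to 145 and 155 to 286 CPM, and the 10 liver endothelial markers to 911 to 2274, 1334 to 3507 and 557 to 724 CPM, none of them at 0 throughout a group. The B cell sum followed *Ms4a1*, at means of 5.03, 81.1 and 144 CPM in the 3 groups, while *Cd79b* was at 47.6, 23.6 and 60.9 CPM and *Cd79a* at 10.2, 9.03 and 14.9 CPM. The study reports CD20, the product of *Ms4a1*, on KCs that lost *Zeb2*. Among the endothelial markers *Cdh5*, which the study counts among the core KC genes, was at means of 239.6, 173 and 122 CPM. *Clec4g* was at 227, 391.5 and 84.8 CPM, *Kdr* at 235, 380 and 71.2 CPM and *Stab2* at 331, 321 and 86.8 CPM. The study relates Tim4 on KCs to how long the cells have been in the liver. It takes *Zeb2*+/- KCs without *Siglecf* and *Timd4* but with *Ccr2* as putative recent arrivals derived from monocytes. Cell origin can therefore differ between Tim4- KCs and the other KC groups. The part of other cells or of cell origin in the changes of *Fos*, *Jun* and *Junb* was not tested. In bulk libraries a change in the share of cells that express a gene and a change in RNA per cell cannot be told apart.

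Replicate 6 of both CRE+ KC groups was set apart from the other KC libraries most by *Egr2*. The 6 Tim4+ KC libraries, in order of replicate number, held 6.10, 3.80, 2.37, 4.64, 3.33 and 29.0 CPM, and the 6 Tim4- KC libraries 5.41, 7.10, 3.58, 4.499, 3.28 and 36.7 CPM. These levels rest on 630 and 798 reads in replicate 6 and on 53 to 167 reads in the other 10 libraries. *Egr1* reached 68.0 and 94.9 CPM in replicate 6, where the other 10 libraries held at most 39.3 CPM. CRE- KC replicate 6 held 4.94 CPM of *Egr2*, within its group, and the highest *Egr1* of its group at 27.3 CPM.

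A search made after these values were seen ranked all 7705 genes with at least 10 CPM in both libraries by how far the lower of both replicates 6 stood above the highest of the other 10 CRE+ KC libraries. *Egr2* ranked 1 (4.08-fold), *Egr1* ranked 2 (1.73-fold) and *Fosl2* ranked 3 (1.21-fold), and 137 genes were above at all. Within each group *Fos* was highest in replicate 6 (92.1 CPM in Tim4+ KCs, next 53.8, and 134.5 CPM in Tim4- KCs, next 126). So were *Fosb* (3.45 and 4.19 CPM), *Fosl2* (15.03 and 14.1 CPM), *Junb* (209.5 and 286 CPM) and, narrowly in Tim4- KCs, *Atf3* (41.3 and 39.97 CPM). *Jund* was highest in replicate 6 of neither group. *Fos* in Tim4+ KC replicate 6 did not exceed Tim4- KC replicate 4 (126 CPM). *Jun* in replicate 6 (209 and 318 CPM) was near replicate 5 (199.6 and 345 CPM). *Hspa1a* was high in replicates 5 and 6 of both groups, at 76.6 and 77.3 CPM in Tim4+ KCs and 121 and 98.97 CPM in Tim4- KCs, against at most 34.9 CPM in the other 8 libraries. CRE- KC replicate 6 had the highest *Hspa1a* of its group, at 54.1 CPM. The summed monocyte, neutrophil and B cell markers of both replicates 6 lay within or at the lower end of their groups.

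**Figure D2:**
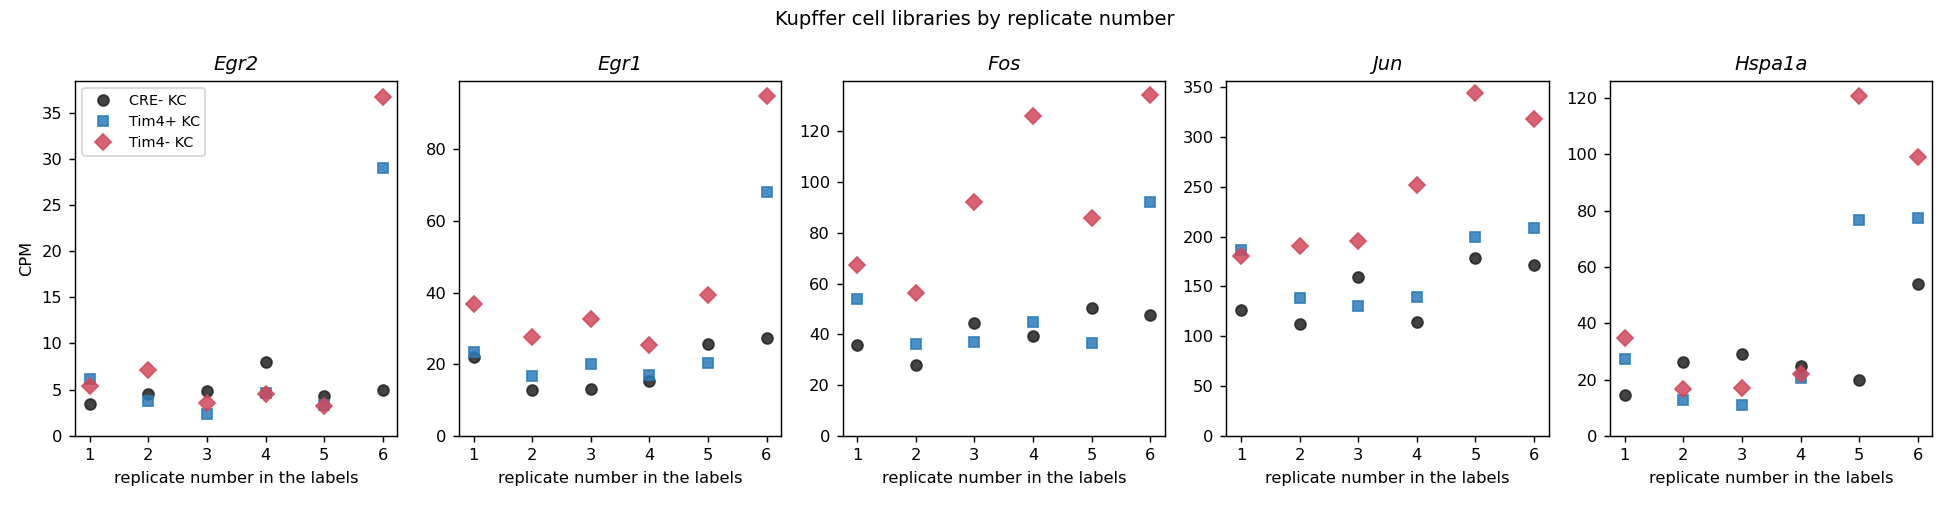
CPM in the 18 KC libraries by the replicate number of the labels, on linear axes from 0; circles are CRE- KCs, squares Tim4+ KCs and diamonds Tim4- KCs. Egr2 (29.0 and 36.7 CPM) and Egr1 (68.0 and 94.9 CPM) are high in replicate 6 of both CRE+ groups only. Hspa1a is high in replicates 5 and 6 of both CRE+ groups, and among CRE- KCs it is highest in replicate 6 (54.1 CPM).

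In AMs most of the changes were decreases. CD11b- AMs were lower than CRE- AMs in 7 of the 10 genes, *Fosb*, *Fosl2*, *Jun*, *Junb*, *Jund*, *Egr1* and *Egr2*, and higher in none, where 12.4% of all 11573 genes were lower and 25.7% changed in either direction. *Egr1* alone also passed a 2-fold limit, against 6.5%. In all 7 every CD11b- AM library lay below every CRE- AM library, as in 8.29% of all genes. *Egr1* held 89.0, 219, 136, 155 and 167 CPM in CD11b- AMs, under the lowest CRE- AM library at 411 CPM. It was 3.20-fold lower (log2 -1.68, SE 0.19, adjusted p = 1.91e-06 in edgeR). *Egr2* held 395, 536, 359, 562 and 432 CPM, where the lowest CRE- AM library held 828 CPM, and was 1.99-fold lower (SE 0.15 on the log2 scale, adjusted p = 6.31e-05 in edgeR).

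The AP-1 genes fell less. *Jun* held 113, 172, 143, 185 and 132 CPM in CD11b- AMs and was 1.69-fold lower (log2 -0.76, SE 0.13, adjusted p = 1.57e-04 in edgeR). *Fosb* (221 ± 29.3 CPM) was 1.72-fold lower, *Jund* (540 ± 75.7 CPM) 1.41-fold and *Junb* (1006 ± 94.2 CPM) and *Fosl2* (155.8 ± 15.8 CPM) 1.31-fold each. *Fos* and *Atf3* were at 1345 ± 72.6 and 218 ± 56.0 CPM, with log2 differences of 0.03 (SE 0.07) and -0.03 (SE 0.18). *Fosl1* was at 3.001 ± 1.27 CPM and did not pass (log2 0.54, SE 0.35).

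CD11b+ AMs were lower than CRE- AMs in *Fosb*, *Jun*, *Egr1* and *Egr2* and higher in *Fos* and *Atf3*, 6 of 10 genes against 43.2% of all genes, of which 22.8% were higher and 20.5% lower. *Egr1* and *Egr2* alone also passed a 2-fold limit, against 15.3%. *Egr2* held 170, 257, 236, 288 and 149 CPM, all under the lowest CRE- AM library, and was 4.16-fold lower (log2 -2.06, SE 0.16, adjusted p = 1.56e-09 in edgeR). *Egr1*, at 129, 163, 114, 207 and 139 CPM, was 3.28-fold lower. *Jun* (173 ± 33.5 CPM) was 1.46-fold lower, and *Fosb* (260 ± 51.0 CPM) 1.47-fold lower with overlapping groups. *Fos* held 1767, 1678, 1495.2, 1861 and 1769 CPM, every library above the highest CRE- AM library at 1419 CPM, a rise of 1.29-fold (adjusted p = 1.72e-04 in edgeR). *Atf3* rose 1.51-fold to 340 ± 71.4 CPM (adjusted p = 0.00953 in edgeR), with 1 CD11b+ AM library at 223 CPM inside the CRE- AM range. The groups did not overlap in 4 of the 10 genes, against 32.5% of all genes. *Junb* (1168 ± 131 CPM, log2 -0.18) was just short of the threshold (adjusted p = 0.0560), and it passed in limma-voom (adjusted p = 0.0323) and without CD11b+ AM replicate 5 (adjusted p = 0.00678). *Fosl2* (180 ± 17.4 CPM, log2 -0.18) passed without CRE- AM replicate 2 or CD11b+ AM replicate 3 (adjusted p 0.0425 and 0.0490).

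Between both CRE+ AM groups, CD11b+ AMs were higher in *Fos* (1.27-fold), *Junb* (1.15-fold), *Jund* (1.504-fold) and *Atf3* (1.55-fold) and 2.09-fold lower in *Egr2*, 5 of 10 genes against 36.4% of all genes (19.8% higher and 16.6% lower). *Egr2* alone also passed a 2-fold limit, against 10.2%. The groups of *Fos*, *Jund* and *Egr2* did not overlap, nor did those of 25.8% of all genes. *Egr2* stepped down across the 3 AM groups, from 905 ± 83.2 to 457 ± 88.6 and 220 ± 58.7 CPM. *Egr1* was at 153 ± 47.2 and 150 ± 36.1 CPM in CD11b- and CD11b+ AMs, with an interval of the log2 difference from -0.40 to 0.33. *Jund* reached 817 ± 153 CPM in CD11b+ AMs, near the 758 ± 94.4 CPM of CRE- AMs. The *Junb* call was lost without any 1 of CD11b- AM replicates 1, 3 and 4 or CD11b+ AM replicates 4 and 5 (adjusted p 0.0619 to 0.119), and *Fosl2* was called without CD11b- AM replicate 2 or CD11b+ AM replicate 1 (adjusted p 0.0412 and 0.0341). With all 33 libraries in 1 fit, *Fos* and *Egr2* were also lost here (adjusted p 0.217 and 0.109), as were *Fos* and *Fosb* in CD11b+ AMs against CRE- AMs (0.148 and 0.114) and *Egr2* and *Fosl2* in CD11b- AMs (0.170 and 0.0621).

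**Figure D3:**
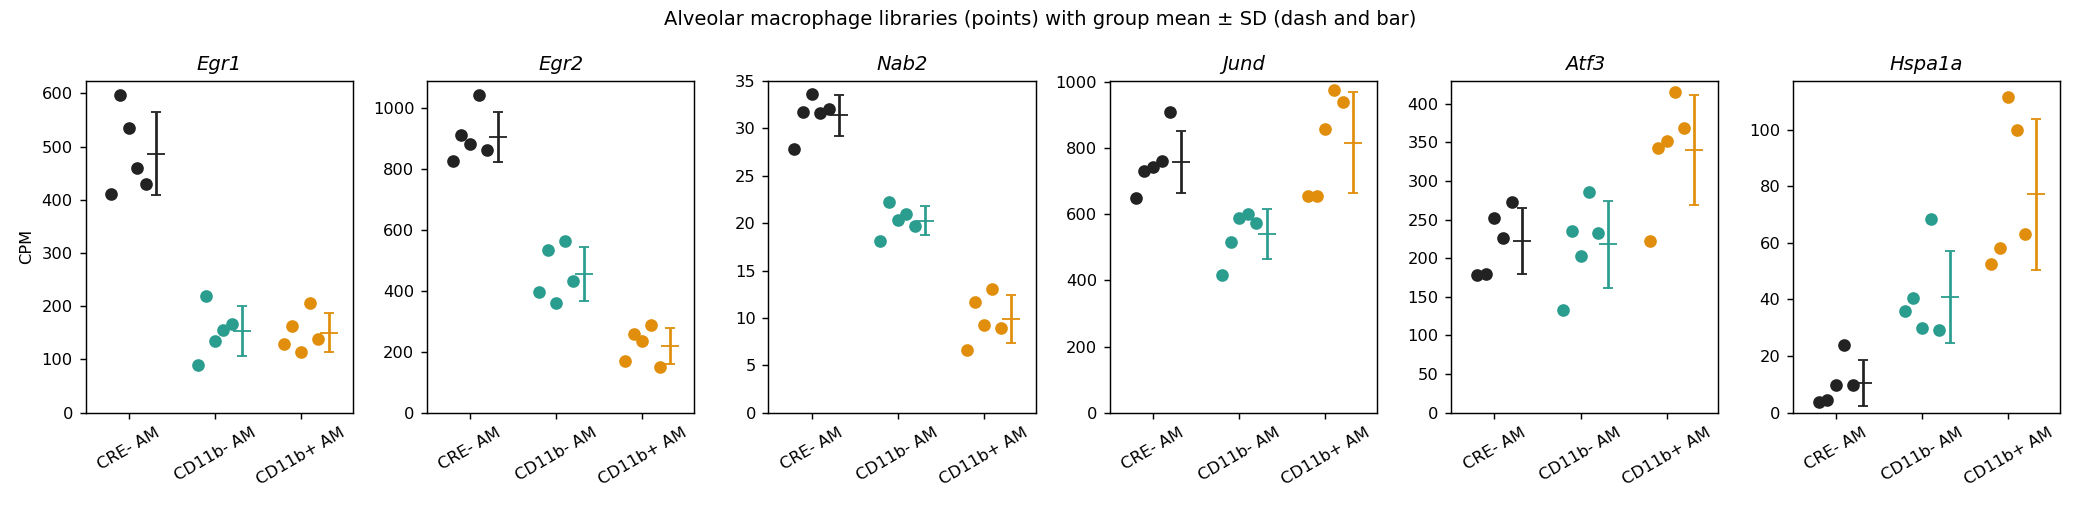
CPM in the 15 AM libraries for Egr1, Egr2, the EGR corepressor gene Nab2, Jund, Atf3 and Hspa1a, on linear axes from 0; points are libraries in replicate order, and the dash and bar beside them are the group mean and SD. Egr2 steps down from 905 to 457 and 220 CPM and Nab2 with it from 31.4 to 20.3 and 9.89 CPM, while Hspa1a goes up from 10.4 to 40.9 and 77.1 CPM.

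Many other immediate-early genes were also lower in CD11b- AMs. Of 39 tested, 21 were lower and 3 higher than in CRE- AMs, with a median log2 difference of -0.32. *Sik1*, a kinase gene of the cAMP response, fell from 60.4 ± 5.86 to 12.9 ± 0.75 CPM (log2 -2.23) and *Nr4a3* from 51.2 ± 14.6 to 23.4 ± 9.82 CPM (-1.14), while *Ier3* rose from 30.9 to 93.5 CPM (1.59) and *Zfp36l1* by 0.79. In CD11b+ AMs the list was divided, with 16 higher and 15 lower. *Ier3* (260 ± 28.8 CPM, log2 3.06) and *Gadd45a* (43.3 ± 3.29 CPM, 2.88) had the largest increases, and *Klf10* (-1.75) and *Gadd45g* (-1.43) the largest decreases at 10 CPM or more. *Egr3*, a further EGR gene at 7.10 CPM in CRE- AMs, fell by 1.75 (log2). Against CD11b- AMs, 20 were higher in CD11b+ AMs and 3 lower.

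Among the regulators, the genes of both EGR corepressors went in opposite directions. *Nab2* fell from 31.4 ± 2.13 CPM in CRE- AMs to 20.3 ± 1.54 in CD11b- and 9.89 ± 2.52 in CD11b+ AMs (log2 -0.64 and -1.68), and *Nab1* rose from 48.5 ± 8.64 to 133 ± 8.21 CPM in CD11b+ AMs (1.44). *Dusp6*, a phosphatase gene of the ERK pathway, rose in both groups (0.80 and 1.46), and *Spry1*, another inhibitor of that pathway, fell in both (-0.60 and -1.38). *Dusp16* rose in CD11b- AMs (0.75), and *Dusp10* (1.70) and *Dusp1* (0.89) were higher in CD11b+ than in CD11b- AMs. Of 34 regulators 7 were higher and 9 lower in CD11b- AMs, and 16 were higher and 5 lower in CD11b+ AMs. Of 26 AP-1 partners 2 were higher and 4 lower in CD11b- AMs, with *Atf1* and *Maff* up and *Cebpa* and *Nfe2l1* down, and 13 higher and 5 lower in CD11b+ AMs. There *Mafg* rose by 0.79 (log2), and *Cebpa* fell from 200.2 to 71.5 CPM and *Batf* by 0.58. *Jdp2*, a zipper repressor of AP-1, was higher in CD11b+ than in CD11b- AMs (20.8 against 9.78 CPM).

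Among the heat-shock genes *Hspa1a*, an inducible HSP70 gene, ranged from 3.66 to 23.9 CPM in CRE- AMs, 29.2 to 68.5 CPM in CD11b- AMs and 52.7 to 112 CPM in CD11b+ AMs, so that both CRE+ groups lay above all CRE- AM libraries, with log2 increases of 1.97 and 2.88. *Hspa1b*, a near-identical copy with which it can share reads, rose as well (1.85 and 2.66). The whole list showed no common direction, with 3 of 21 higher and 2 lower in CD11b- AMs and 4 higher and 4 lower in CD11b+ AMs, and it summed to 6580 to 9258, 5940 to 8639 and 5919 to 8626 CPM in the 3 groups. *Hsp90b1* was lower in CD11b- AMs, and *Hsph1* and *Hsp90b1* in CD11b+ AMs. Of 32 activation genes 11 were higher and 2 lower in CD11b- AMs, and 22 higher and 4 lower in CD11b+ AMs. *Mmp12*, which encodes macrophage elastase, rose from 6.87 to 130 and 676 CPM and *Il1a* rose by 1.20 in CD11b- AMs, *Osm* fell in CD11b- AMs (-0.94) and *Tnf* in CD11b+ AMs (-0.80). *Mmp9* rose from 0.07 to 14.7 CPM in CD11b+ AMs.

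Genes listed as markers of other cells moved with the AM groups. The 6 neutrophil markers measured of 7 summed to 35.9 to 59.6 CPM in CRE- AMs, 805 to 2421 CPM in CD11b- AMs and 8162 to 10462 CPM in CD11b+ AMs, and the 10 lung epithelial markers to 117 to 157, 506 to 603 and 1322 to 1701 CPM. The 5 monocyte markers summed to 3.89 to 8.84, 10.2 to 24.4 and 82.1 to 271 CPM, and the 5 B cell markers measured to 7.64 to 12.8, 15.1 to 44.2 and 61.0 to 87.6 CPM. The sums were carried by part of each list. Among the epithelial markers *Cdh1* went from a mean of 93.2 to 270 and 342 CPM, *Epcam* from 15.8 to 179 and 509.7 CPM and *Krt8* from 0.16 to 57.0 and 559.7 CPM. The surfactant gene *Sftpc* was at 13.5, 18.9 and 23.5 CPM, the airway gene *Scgb1a1* at 5.44, 7.75 and 6.71 CPM and *Ager* at 2.40, 1.498 and 1.85 CPM. Among the neutrophil markers *S100a8* went from 4.47 to 717 and 4439 CPM and *S100a9* from 0.0955 to 506 and 3662 CPM. *Cxcr2* went from 3.25 to 150 and 573 CPM and *Csf3r* from 38.2 to 114 and 370 CPM. *Mmp9* and *Retnlg* were at most at 14.7 and 2.83 CPM, both in CD11b+ AMs. *Ms4a1* made up most of the B cell sum in CRE+ AMs, at 23.8 and 66.7 CPM. The study reports EpCam on AMs that lost *Zeb2*, and CD20, the product of *Ms4a1*, on KCs that lost it. No neutrophil or epithelial marker was at 0 throughout a group, 1 monocyte marker was at 0 throughout each CRE+ group, and 1 B cell marker throughout all 3 groups. Their part in the changes of *Fos*, *Atf3* and the *Egr* genes was not tested.

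**Figure D4:**
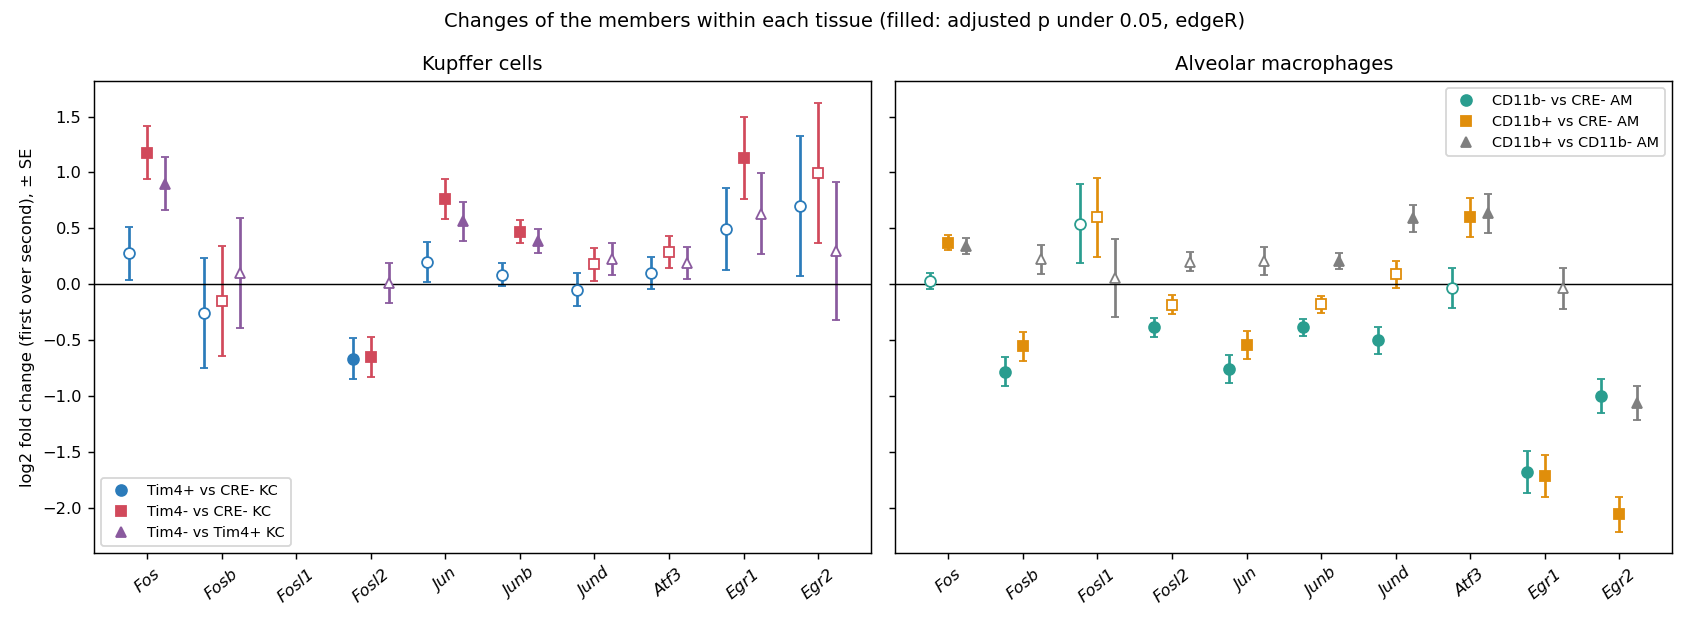
Log2 fold change of each gene ± SE in the 3 KC comparisons (left) and the 3 AM comparisons (right) from edgeR; filled symbols passed an adjusted p of 0.05, open ones did not, and Fosl1 was not tested in KCs. Fos, Jun, Junb and Egr1 are higher in Tim4- KCs, by 0.47 to 1.18, whereas Egr1 and Egr2 are lower in both CRE+ AM groups, by 0.995 to 2.06.

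The changes in CRE+ KCs and CRE+ AMs were set against each other in 1 fit of all 33 libraries, as the mean change of both CRE+ KC groups less the mean change of both CRE+ AM groups. The difference passed for 4 genes, all with a positive sign, where 10% of all 13294 genes passed with that sign and 19.5% with either. A positive difference can come from a rise in KCs, a fall in AMs or both. *Egr2* was called lower in both CRE+ AM groups and was not called in either CRE+ KC group. The difference was 2.51 for *Egr1* (log2, SE 0.40, adjusted p = 1.39e-05 in edgeR), 2.40 for *Egr2* (SE 0.62, adjusted p = 0.00461), 1.14 for *Jun* (SE 0.21, adjusted p = 9.52e-05) and 0.57 for *Junb* (SE 0.12, adjusted p = 5.98e-04). Without both replicates 6 it was 2.06 for *Egr1* and 1.33 for *Egr2* (adjusted p = 3.09e-04), and *Fosl2* passed as well at -0.47, as it did without CRE- KC replicate 4 (adjusted p = 0.0399). *Fos*, at 0.53 (SE 0.24, adjusted p = 0.125), did not pass. *Fosl1* had too few reads in KCs for a value. Of 39 other immediate-early genes 14 passed with a positive and 5 with a negative difference. With no limit on the level, *Egr3* (2.57) and *Sik1* (2.40) led the former and *Cyr61* (-3.49) and *Hes1* (-3.00) the latter. *Sik1* held means of 1.39, 1.81 and 2.55 CPM in CRE-, Tim4+ and Tim4- KCs and of 60.4, 12.9 and 24.2 CPM in CRE-, CD11b- and CD11b+ AMs. *Dusp5* (3.59) led the regulators that passed, and of 21 heat-shock genes 4 passed with a positive difference, with *Hsph1* first at 0.84, and 1 with a negative one. The CRE drivers, tissues, protocols and mix of sexes differ between both arms of this difference and cannot be told apart.

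**Figure D5:**
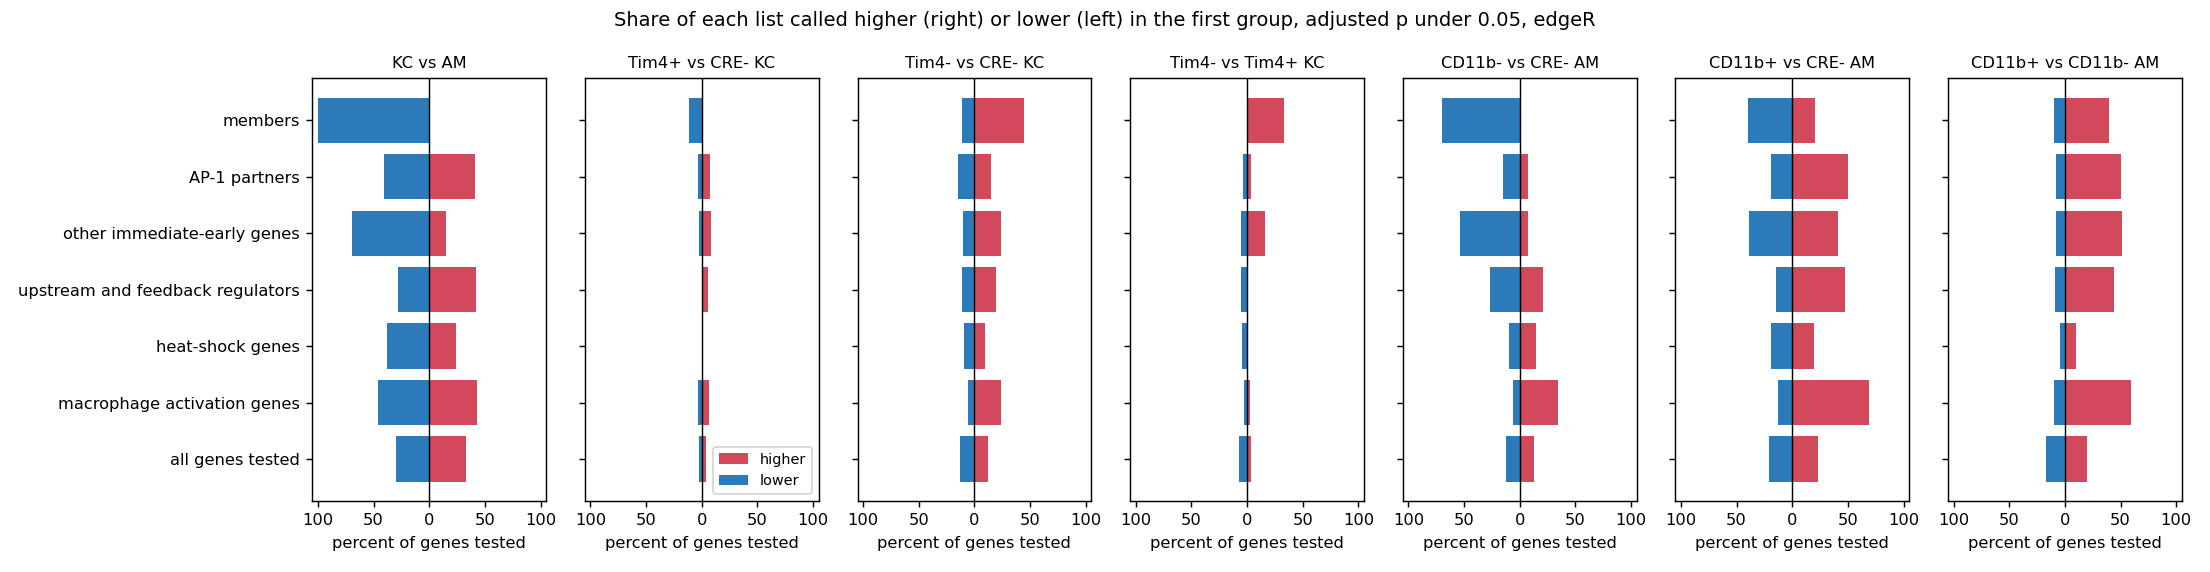
Percent of the tested genes of each list that were called higher (right) or lower (left) in the first group of each comparison, adjusted p under 0.05 in edgeR, with all genes tested in the bottom row. The 10 members and the other immediate-early genes are mostly lower in KCs than in AMs (10 of 10 and 27 of 39) and in CD11b- than in CRE- AMs (7 of 10 and 21 of 39), and the heat-shock list is called in both directions or hardly at all.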

How the data were processed

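Bulk RNA-seq of 33 libraries in 6 groups was analysed, with groups and replicate numbers from the labels. The authors sorted 25000 cells per library, trimmed reads with Trimmomatic (0.35), mapped them to mm10 with TopHat2 (2.1.0) and counted them with HTSeq-count; versions and build are from the submitters' processing notes, while annotation and strand setting are not given in the sources used here. They deposited raw counts per gene symbol without normalization. Each table also holds 5 tally rows, which were left out of library sizes and tests; reads on no feature were 4.52% to 8.90%.

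Counts were compared with edgeR 4.0.16 in R 4.3.3 (TMM factors, its filter on low counts, quasi-likelihood test, Benjamini-Hochberg adjustment over all genes tested, threshold 0.05). KC, AM and CRE- libraries were fitted separately, all 33 together for the difference between tissues. The SE is the log2 change divided by the square root of F, and intervals are 1.96 SE on either side. Log2 CPM used a prior count of 0.5. No pair of libraries in a group was a duplicate. The steps were tested on simulated counts. Also tried were DESeq2 1.42.0, the limma-voom of the study's methods (limma 3.58.1), RLE factors, other filters, other samples in the fit, exact permutation tests, a replicate block, *Ddx3y* as a covariate and each library left out. The reported tests, also that of Tim4- against Tim4+ KCs, have no replicate block and so leave any pairing out. Same-numbered Tim4- and Tim4+ KC libraries may be paired, since all 6 such pairs correlated in their deviations from the group means (r 0.102 to 0.253, against a mean of -0.04 for other pairs). Named are all members, at most 2 genes up and 2 down per list and comparison with at least 10 CPM, and the 5 genes most like *Fos* and *Egr2*; some genes that this rule would name are not reported here, and other genes named were chosen after their values were seen. The members, lists and tests were chosen with earlier results of these data known. Exon lengths came from GENCODE M21 and promoters from RefSeq. Python 3.11 drew the plots.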

Additional observations from a re-analysis of the deposited data

Results flagged for a closer look

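In 57 sets of log2 CPM values, 1 gene in 1 group each, 6 single values lay farther from the rest of their group than Dixon's 95% limit. Chance alone puts about 1 in 20 sets past it. *Egr1* was high in Tim4+ KC replicate 6 (68.0 CPM) and Tim4- KC replicate 6 (94.9 CPM), and *Egr2* in Tim4- KC replicate 6 (36.7 CPM). *Egr2* in Tim4+ KC replicate 6 (29.0 CPM) did not pass the limit on the log2 scale. *Jun* was low in CRE- AM replicate 1 (230 CPM), *Atf3* in Tim4- KC replicate 1 (30.6 CPM) and *Fosl1* in CD11b- AM replicate 1 (0.91 CPM).

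The mean log2 change in CRE+ KCs less that in CRE+ AMs passed the test of the difference itself in edgeR for *Jun* (1.14), *Junb* (0.57), *Egr1* (2.51) and *Egr2* (2.40).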

How the results depend on the processing

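The number of members called was within 1.5 times the reported one under limma-voom, DESeq2, RLE factors, either other filter on low counts, library sizes without the top 10 genes, *Ddx3y* as a covariate and the replicate block. Requiring a change over 2-fold too left 0 members in Tim4+ against CRE- KCs, 2 in Tim4- against CRE- KCs, 0 in Tim4- against Tim4+ KCs, 1 in CD11b- and 2 in CD11b+ against CRE- AMs and 1 between both CRE+ AM groups. With all 33 libraries in the fit, 2 members were called between the CRE+ AM groups, for which the cause was not tested. Leaving out 1 library gave 0 to 1 members in Tim4+ against CRE- KCs and 1 to 4 in Tim4- against Tim4+ KCs.

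Some log2 changes that were not called turned sign, and the cause was not tested. For *Fosb* in Tim4- against Tim4+ KCs the value was -0.24 in limma-voom, -0.0509 with the replicate block and -0.11 in the exact permutation test. For *Egr2* in Tim4+ against CRE- KCs it was -0.0103 with the replicate block and -0.33 without replicate 6 of both CRE+ KC groups, an alternative added after seeing the data, which also gave -0.00958 for *Egr1* there and -0.0757 for *Egr2* in Tim4- against CRE- KCs. *Egr1* between the CRE+ AM groups was 0.00297 in log2 CPM. Leaving out 1 library gave -0.0868 to 0.0261 for *Jund* and -0.30 to 0.89 for *Egr2* in Tim4+ against CRE- KCs, -0.57 to 0.0525 for *Fosb* and -0.0888 to 1.18 for *Egr2* in Tim4- against CRE- KCs, and -0.31 to 0.42 for *Fosb*, -0.0779 to 0.14 for *Fosl2* and -0.79 to 1.32 for *Egr2* in Tim4- against Tim4+ KCs. In AMs it gave -0.0169 to 0.0597 for *Fos* and -0.15 to 0.10 for *Atf3* in CD11b- against CRE- AMs, -0.17 to 0.20 for *Fosl1* and -0.18 to 0.13 for *Egr1* between the CRE+ groups, and between tissues -0.16 to 0.0456 for *Atf3*.

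Beside *Egr1* in Tim4- against Tim4+ KCs, the replicate block added calls only for *Junb* in CD11b+ against CRE- AMs (-0.19) and *Fos* between tissues (0.48), and took away none. In the other comparisons same-numbered libraries correlated less, with a mean r of at most 0.0807 against 0.182 in Tim4- against Tim4+ KCs. Still, 5 of 5 correlated best with their own between the CRE+ AM groups (r 0.0495 to 0.099) and in CD11b+ against CRE- AMs (r 0.0372 to 0.0873), a hint from the data only. Depth limits *Fosl1* in KCs, with 1 read in 18 libraries.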

Other observations

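Across the 33 libraries, after each group's mean was taken off, the 5 genes most like *Fos* in log2 CPM among 8275 genes with at least 10 CPM were *Zfp36* (Pearson r 0.721), *Gm1966* (0.716), *Havcr2* (0.698), *Ggta1* (0.688) and *Zfp131* (0.666). Those most like *Egr2* were *Egr1* (0.702), *Spty2d1* (0.688), *Fosb* (0.679), *Ago4* (0.638) and *Atp2b1* (0.630). These are descriptions, since the points share libraries and depth. Without replicate 6 of both CRE+ KC groups, 31 libraries, *Egr1* (0.051) and *Atp2b1* (0.166) were hardly like *Egr2*, while *Ago4* (0.617) was about as like it as before, and *Spty2d1* and *Fosb* were at 0.362 and 0.398. The 5 genes most like *Fos* remained between 0.562 and 0.672. Among pairs of members, *Egr2* with *Egr1* and with *Fosb* had the highest r, followed by *Egr1* with *Jun* (0.632), and *Jund* with *Fosb* had the lowest (-0.183).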
